A study of Homo sapiens with 6 samples.

Results

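The genes for alpha- and beta-tubulin were followed spot by spot on cDNA arrays of SH-SY5Y cells, an established line from a human neuroblastoma, a tumour of the sympathetic nervous system. All 10 genes considered had at least 1 spot that the platform annotation assigned to them. Together they had 38 of the 9600 spots, 20 for the 4 alpha-tubulin genes TUBA1A, TUBA1B, TUBA1C and TUBA4A and 18 for the 6 beta-tubulin genes TUBB, TUBB2A, TUBB2B, TUBB3, TUBB4B and TUBB6. Spots were taken by annotated gene, but the family itself was chosen by its measured difference between DN-TRF2 and GFP control arrays, so the differences given here are a description and carry no test. The 3 GFP control arrays held RNA from cells that carried the vector pEGF-C2 with no cDNA insert. The 3 DN-TRF2 arrays held RNA from cells that carried pIRES2-EGFP with a dominant-negative form of TRF2, a telomere-binding protein of the shelterin complex. All 6 samples had been kept under 500 µg/ml geneticin, and their RNA was taken on day 7 after transfection, in 3 independent experiments according to the labels. The vector backbone and the insert cannot be told apart in this design, and cells transfected with wild-type TRF2 were not analysed here.

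Alpha- and beta-tubulin join as dimers that polymerize into microtubules, the hollow filaments that form the mitotic spindle and fill neurites. Each subunit comes from a family of very similar genes: TUBB3 is the beta-tubulin typical of neurons, TUBA1A and TUBB2B are abundant in the developing nervous system, and TUBA1B, TUBA1C, TUBB, TUBB4B and TUBB6 are made in many dividing cells. Free tubulin dimers shorten the life of tubulin messenger RNAs as they are translated, so the members of the family are regulated together. Because the genes resemble each other closely, a cDNA spot of 1 tubulin gene can also bind RNA of its relatives, and the spots are not independent measurements.

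About 5 µg of total RNA per sample was labelled with 33P and hybridized in 1 channel. Median deposited intensity ran from 479.9 to 712.0 over the 6 arrays. Values below are log2 of intensity plus 50 after quantile normalization. A difference is DN-TRF2 minus GFP control on that scale with its standard error (n = 3 arrays per group). The standard errors do not use pairing by replicate number. The offset makes folds of dim spots appear smaller than they were in intensity. GFP control 2 stood apart: its deviations from the group mean had an SD of 0.30 over all spots, against 0.25 and 0.21 on GFP controls 1 and 3 and 0.12 to 0.15 on the DN-TRF2 arrays. Of the 9169 spots fitted, 0 passed limma's test at a Benjamini-Hochberg adjusted p under 0.05 (smallest adjusted p 0.999), and 313 (3.41%) had an unadjusted p under 0.05. With the replicate number as a block 527 (5.75%) had one and 0 passed (smallest adjusted p 0.269). With 0 spots named TERF2, the gene for TRF2, the labels could not be checked against their target. Spots of 9 of 17 listed sympathetic neuroblast markers were measured (DBH, GATA2, GATA3, CHGA, CHGB, UCHL1, STMN2, NEFM and GAP43). None of their 18 spots was at or under the deposited intensity of 10 that stands for no signal. On the log2 scale, their mean signal was 10.19 to 10.25 on the GFP control arrays and 10.24 to 10.30 in DN-TRF2 cells. The means of 4 measured mesenchymal markers were 9.54 to 10.10 and 9.77 to 10.003, those of 3 blood markers 8.40 to 8.49 and 8.37 to 8.63, and those of 8 liver and epithelial markers 8.54 to 8.77 and 8.69 to 8.83. Since 15 of the 16 liver and epithelial spots also lay above the deposited intensity of 10 on every array, signal alone does not identify the cells. Their part in the results below was not tested.

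Most tubulin spots had a lower mean in DN-TRF2 cells. The mean was lower at 35 of the 38 spots, where 52.7% of all spots had a lower mean. The median difference over the 38 spots was -0.32, against -0.011 over all spots. Averaged over the 38 spots, the signal was 11.45, 10.72 and 11.56 on GFP control arrays 1, 2 and 3 and 11.14, 10.64 and 11.03 on DN-TRF2 arrays 1, 2 and 3. The DN-TRF2 arrays lay below GFP controls 1 and 3, while GFP control 2 lay among them, so the groups overlapped. At single spots the 3 DN-TRF2 arrays lay below all 3 GFP control arrays in 5 of 38 cases, where this occurred at 4.43% of all spots. The count of 5 became 31 of 38 without GFP control 2, where 11.7% of all spots separated in this way, 11 without DN-TRF2 1, where 8.73% did, and 8 without GFP control 1, where 10.5% did. The median difference was -0.66 without GFP control 2, -0.16 without GFP control 3 and -0.15 without DN-TRF2 2, and -0.51 with limma's array weights. Leaving out 1 array splits its like-numbered pair. With both arrays of replicate number 1, 2 or 3 left out, the median was -0.32, -0.48 and -0.24. In whole-cell RNA, fewer cells of a kind and less RNA per cell cannot be told apart.

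**Figure D1:**
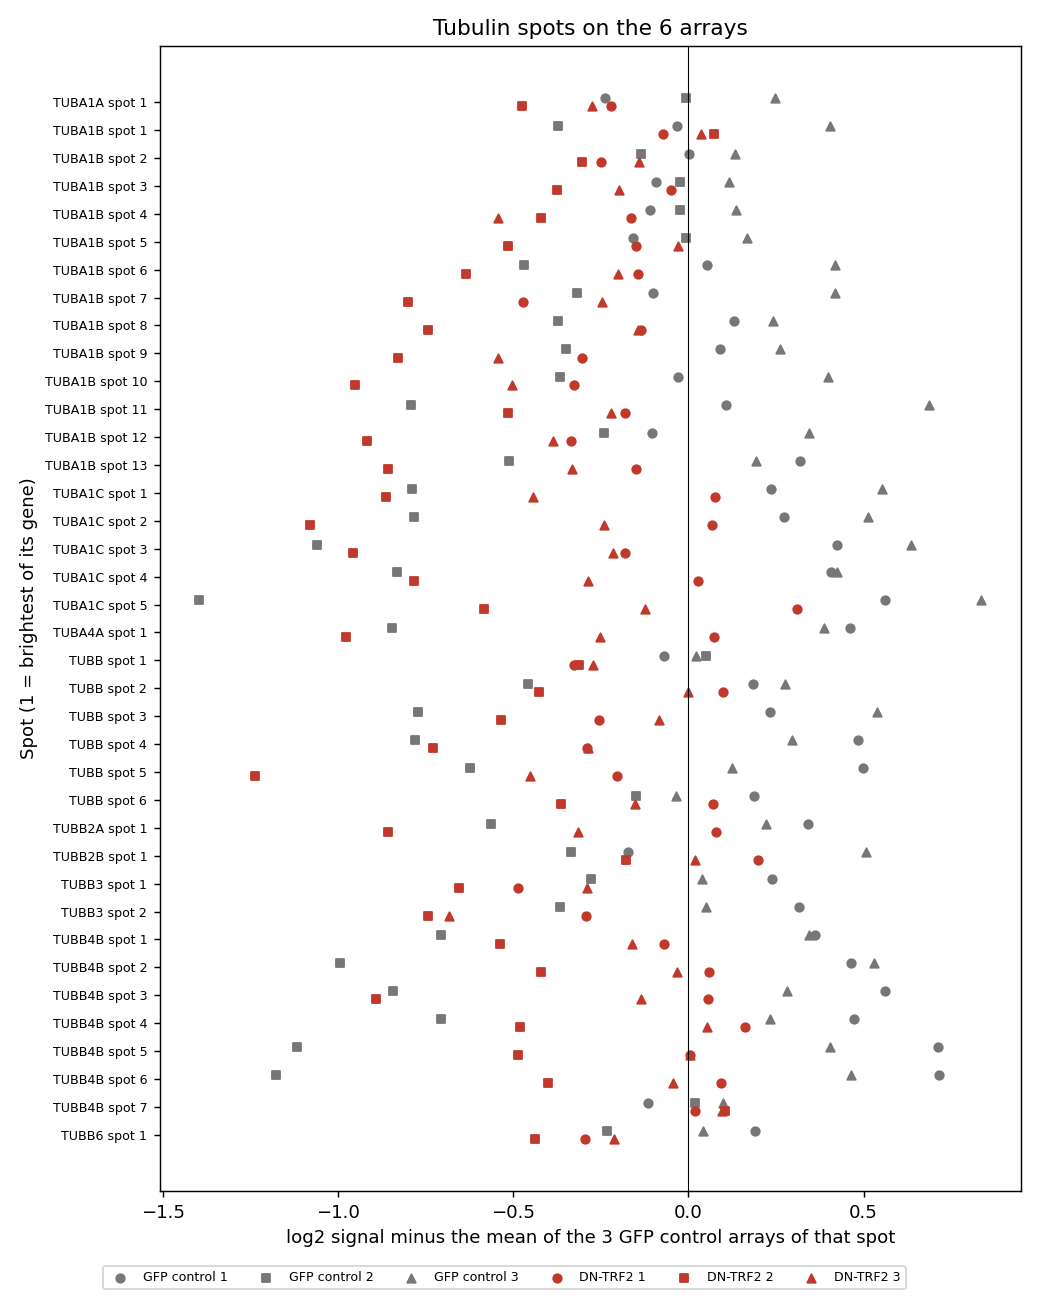
Signal of each tubulin spot on each array (log2, minus the mean of the 3 GFP control arrays of that spot), with grey for GFP control and red for DN-TRF2, and circles, squares and triangles for replicates 1, 2 and 3. At most spots both squares lie to the left of the other symbols of their group, and the red circles and triangles lie to the left of the grey ones.

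**Figure D2:**
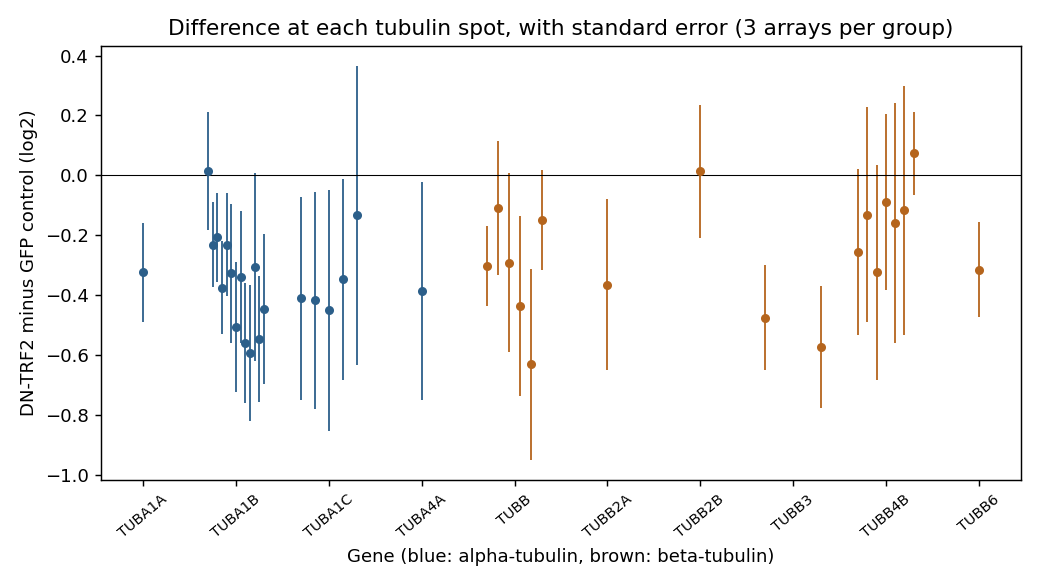
Difference between DN-TRF2 and GFP control at each of the 38 spots (log2, points) with its standard error (lines, 3 arrays per group), by gene and from the brightest to the dimmest spot within a gene. The means at 35 spots lie below 0; the other 3 belong to TUBA1B, TUBB2B and TUBB4B.

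TUBB3, the neuronal beta-tubulin, had 2 spots. The brighter read 11.29, 10.78 and 11.10 in GFP controls 1, 2 and 3 and 10.57, 10.40 and 10.77 in DN-TRF2 samples 1, 2 and 3. The groups did not overlap there, although GFP control 2 and DN-TRF2 3 were almost level. The difference was -0.48 ± 0.18, a fold of 0.719. In deposited intensity the same spot read 2223, 1698 and 2522 in the controls and 1321, 1292 and 1903 in DN-TRF2 cells. The dimmer spot read 10.76, 10.08 and 10.50 against 10.15, 9.70 and 9.76, a difference of -0.57 ± 0.20, and overlapped only through GFP control 2 and DN-TRF2 1. Both spots were lower at each of the 3 replicate numbers. The mean over both spots was -0.52, and it ran from -0.38 without GFP control 1 to -0.68 without GFP control 2. Leaving out both arrays of replicate number 1, 2 or 3 gave -0.45, -0.59 and -0.53.

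TUBA1B, an alpha-tubulin of nearly all cells, had 13 spots, of which 12 had a lower mean. The mean of the 13 differences was -0.36, with a range from -0.59 to 0.01 and standard errors between 0.14 and 0.31. The lowest difference came from a spot that read 11.85, 11.51 and 12.28 in the controls and 11.56, 10.93 and 11.38 with DN-TRF2 (-0.59 ± 0.23, a fold of 0.663). Its groups overlapped through GFP control 2 and DN-TRF2 1. The brightest spot of the gene gave the 1 mean that was not lower. It read 13.62, 13.28 and 14.06 against 13.58, 13.73 and 13.69 (0.01 ± 0.20), and the DN-TRF2 arrays fell inside the range of the controls. At 3 of the 13 spots the groups did not overlap, with DN-TRF2 lower, where 4.43% of all spots did so. The mean over the 13 spots was -0.52 without GFP control 2, -0.21 without GFP control 3 and -0.24 without DN-TRF2 2. Leaving out both arrays of replicate number 1, 2 or 3 gave -0.41, -0.39 and -0.27. The spots annotated to this gene agreed in sign with 1 exception but differed in size. Their standard errors describe the spread between arrays at a single spot, not the spread between spots.

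TUBA1A, the alpha-tubulin best known from developing neurons, had 1 spot. It read 12.13, 12.36 and 12.61 in the controls and 12.14, 11.89 and 12.09 with DN-TRF2, a difference of -0.32 ± 0.17. DN-TRF2 1 was level with GFP control 1 and the other DN-TRF2 arrays were below all controls. Without GFP control 3 the difference was -0.21. Leaving out both arrays of replicate number 1, 2 or 3 gave -0.46, -0.25 and -0.24. This spot was 1 of the few at which GFP control 2 was not low.

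TUBA1C had 5 spots, all with a lower mean, and TUBA4A had 1. The mean difference was -0.35 for TUBA1C, between -0.45 and -0.13 at single spots. Standard errors ran from 0.33 to 0.50, and the median SD over the 3 control arrays was 0.72. Its brightest spot read 11.81, 10.78 and 12.13 in the controls and 11.65, 10.71 and 11.13 with DN-TRF2. GFP control 2 and DN-TRF2 2 were low together. The spot of lowest difference read 11.70, 10.21 and 11.91 against 11.09, 10.31 and 11.06. The spot of highest difference read 11.18, 9.22 and 11.45 against 10.93, 10.03 and 10.49, and there GFP control 2 lay below every DN-TRF2 array. TUBA4A read 11.43, 10.13 and 11.36 against 11.04, 9.99 and 10.72, a difference of -0.39 ± 0.36 with the same low second replicates. Without GFP control 2 the means became -0.84 for TUBA1C and -0.80 for TUBA4A, and without DN-TRF2 1 they were -0.56 and -0.62. Without GFP control 1 they were -0.15 for each, without DN-TRF2 2 they were -0.10 and -0.092, and without GFP control 3 they were -0.060 and -0.20. With both arrays of a replicate number left out, TUBA4A ran from -0.51 (without number 2) to -0.27 (without number 3), and TUBA1C from -0.59 to -0.11 for the same numbers. Within pairs of like-numbered arrays TUBA4A was lower at each of the 3 numbers.

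TUBB, the common beta-tubulin, had 6 spots, all with a lower mean, and a mean difference of -0.32. Its brightest spot was the steadiest of the family: it read 11.77, 11.89 and 11.87 in the controls and 11.52, 11.53 and 11.57 with DN-TRF2. The groups were apart by more than their spread (SD 0.062 and 0.029), with a difference of -0.30 ± 0.13. The spot of lowest difference read 10.36, 9.23 and 9.98 against 9.65, 8.62 and 9.41 (-0.63 ± 0.32), and that of highest difference 11.88, 11.23 and 11.97 against 11.79, 11.27 and 11.69 (-0.11 ± 0.22). At both of these the groups overlapped because GFP control 2 was low. A pair of TUBB spots carried the same clone, yet their mean signals were 10.91 and 8.22 and their differences -0.44 and -0.15. The mean for the gene was -0.55 without GFP control 2, -0.19 without GFP control 1 and -0.18 without DN-TRF2 2. Leaving out both arrays of replicate number 1, 2 or 3 gave -0.27, -0.41 and -0.29.

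TUBB4B, a beta-tubulin of many tissues and of cilia, had 7 spots and the mean difference nearest to 0 among the genes with several spots, -0.14. Its spots lay between -0.32 and 0.07. The brightest read 11.74, 10.67 and 11.72 in the controls and 11.30, 10.84 and 11.21 with DN-TRF2 (-0.26 ± 0.28). GFP control 2 lay below every DN-TRF2 array there. The spot of lowest difference read 11.63, 10.22 and 11.35 against 11.12, 10.18 and 10.93. The spot of highest difference, also the dimmest, read 8.59, 8.72 and 8.80 against 8.72, 8.81 and 8.80 and did not share the low second replicates. The gene's mean was -0.54 without GFP control 2 and -0.24 without DN-TRF2 1, but it turned to 0.086 without GFP control 1, 0.023 without GFP control 3 and 0.0074 without DN-TRF2 2. No direction can be given for TUBB4B that holds on every subset of 5 arrays. With both arrays of replicate number 1, 2 or 3 left out, its mean was -0.0059, -0.39 and -0.038.

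TUBB2A, TUBB2B and TUBB6 had 1 spot each. TUBB6 read 11.61, 11.18 and 11.46 in the controls and 11.12, 10.98 and 11.20 with DN-TRF2 (-0.32 ± 0.16), with overlap only between GFP control 2 and DN-TRF2 3. TUBB2A read 11.31, 10.41 and 11.19 against 11.05, 10.11 and 10.66 (-0.37 ± 0.28). Its second replicates were low in both groups. Without GFP control 2 TUBB2A stood at -0.64, without DN-TRF2 1 at -0.59, without GFP control 1 at -0.19 and without DN-TRF2 2 at -0.12. Leaving out both arrays of replicate number 1, 2 or 3 gave -0.41, -0.40 and -0.29 for TUBB2A. TUBB2B, a beta-tubulin of neurons and their precursors, read 6.54, 6.38 and 7.22 against 6.91, 6.53 and 6.73 (0.01 ± 0.22). Its spot was the dimmest of the family, at deposited intensities from 23.3 to 126, and its sign changed with scaling and with the arrays used (-0.014 with median scaling, -0.16 without GFP control 2 and 0.26 without GFP control 3).

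Promoter sequences are shown for 4 genes, so that members with a similar position of GFP control 2 at their median spot can be set side by side. At the median spot of TUBA1B and TUBB3, GFP control 2 lay at -0.53 and -0.48 from the mean of the other controls, and at that of TUBA1C and TUBB4B at -1.25 and -1.27. Each is the 250 bases before a RefSeq gene start in GRCh38.p14. The table gave 2 windows for TUBB3 and 3 for TUBA1C, and the window with most motif matches is shown. Capitals mark CCAAT (the CCAAT box) and GGGCGG (the GC box) on either strand. TUBA1B lies on the minus strand at chr12:49131396-49131645, TUBB3 on the plus strand at chr16:89923092-89923341, TUBA1C on the plus strand at chr12:49264832-49265081 and TUBB4B on the plus strand at chr9:137241037-137241286.
TUBA1B: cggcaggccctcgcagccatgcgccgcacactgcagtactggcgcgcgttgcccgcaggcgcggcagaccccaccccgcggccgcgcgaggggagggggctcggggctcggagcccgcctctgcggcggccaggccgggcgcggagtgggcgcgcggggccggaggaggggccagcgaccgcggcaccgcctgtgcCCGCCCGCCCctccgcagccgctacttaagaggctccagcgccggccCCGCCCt
TUBB3: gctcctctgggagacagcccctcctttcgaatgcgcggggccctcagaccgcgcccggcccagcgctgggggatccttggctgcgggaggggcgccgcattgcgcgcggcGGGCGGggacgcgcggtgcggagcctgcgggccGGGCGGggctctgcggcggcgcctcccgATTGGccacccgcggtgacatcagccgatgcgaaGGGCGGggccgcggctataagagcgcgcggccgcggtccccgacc
TUBA1C: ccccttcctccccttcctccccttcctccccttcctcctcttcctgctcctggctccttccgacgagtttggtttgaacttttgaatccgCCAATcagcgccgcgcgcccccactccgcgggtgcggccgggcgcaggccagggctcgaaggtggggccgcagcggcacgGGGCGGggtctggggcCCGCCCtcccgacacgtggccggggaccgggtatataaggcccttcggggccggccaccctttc
TUBB4B: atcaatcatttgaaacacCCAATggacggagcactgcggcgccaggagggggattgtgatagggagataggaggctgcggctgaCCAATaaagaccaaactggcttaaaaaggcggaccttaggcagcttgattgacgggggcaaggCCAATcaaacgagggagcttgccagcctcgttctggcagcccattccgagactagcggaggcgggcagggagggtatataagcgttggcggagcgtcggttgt
The TUBA1B window held 3 GC boxes, 1 pair of which overlapped, and 0 CCAAT boxes. That of TUBB3 held 3 GC boxes and 1 CCAAT box, that of TUBA1C 2 GC boxes and 1 CCAAT box, and that of TUBB4B 3 CCAAT boxes and 0 GC boxes. No match of 1 motif overlapped a match of the other. Members not shown differed from these: TUBA4A, with GFP control 2 at -1.27, had 4 GC boxes and 0 CCAAT boxes. TUBA1A, at -0.011, had 2 CCAAT boxes and 0 GC boxes. Whether motifs go with the position of GFP control 2 was not tested. Of 35116 RefSeq windows of this length, 32.0% held CCAAT, and GGGCGG was found in 42.6% of them. The TUBA1C and TUBB3 windows were picked for most matches, so these shares are not a like comparison for them. Also searched on both strands were TATAAA (10.7% of all windows) and a part of the site of the neuronal repressor REST, TTCAGCACC (0.288%), and neither is in these 4 windows.

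Compared by replicate number, DN-TRF2 minus GFP control was lower at 33 of 38 tubulin spots for number 1, 23 for number 2 and 38 for number 3. Over all spots the shares were 51.8%, 54.1% and 49.6%. The median difference over tubulin spots was -0.29, -0.17 and -0.53 in the same order. At 20 of 38 spots all 3 numbers were lower, as at 14.7% of all spots. TUBA1B was lower at number 2 at 11 of its 13 spots, TUBB3 at both of its spots and TUBB at 3 of 6. TUBA1C was lower there at 2 of 5 spots and TUBB4B at 1 of 7, with medians of 0.050 and 0.23. Replicate number 2 thus carried the smallest median difference, and most spots of TUBA1C and TUBB4B were not lower there.

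The second replicates of both groups were low at most tubulin spots. GFP control 2 was the lowest of the controls at 32 of 38 tubulin spots, against 36.4% of all spots, and DN-TRF2 2 the lowest of its group at 34 of 38, against 32.5%. At the median tubulin spot GFP control 2 lay at -0.70 from the mean of the other 2 controls, against 0.019 over all spots, and DN-TRF2 2 lay at -0.44, against 0.014. The depth varied within the family. In the controls it was -1.25 at the median TUBA1C spot (-2.10 to -1.18), -1.27 at the median TUBB4B spot (-1.77 to 0.027), -1.27 at TUBA4A, -0.84 at TUBB2A and -0.81 at the median TUBB spot. It was -0.53 at the median TUBA1B spot (-1.19 to -0.011), -0.48 for TUBB3, -0.35 for TUBB6 and -0.011 for TUBA1A. A depth of more than 1 was found at 15 of 38 tubulin spots and at 1.88% of the 9131 other spots. Over the 35 tubulin spots of mean signal at least 9, depth in the controls and in DN-TRF2 cells correlated across spots (Pearson r = 0.57, Spearman rho = 0.61), and brighter spots were less deep (r = 0.56, rho = 0.64 between mean signal and GFP control 2 minus the other controls). Those spots share the same 6 arrays and related sequences, so they are not independent, and these values carry no p.

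**Figure D3:**
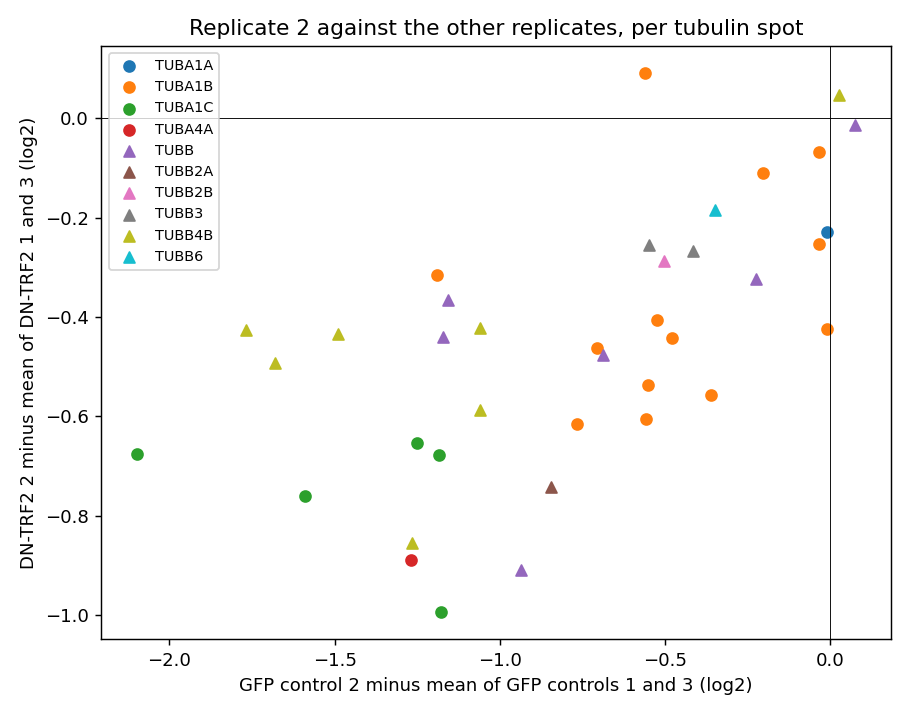
Replicate 2 against the mean of replicates 1 and 3 at each tubulin spot (log2), in the GFP controls on the horizontal axis and in DN-TRF2 cells on the vertical axis, with circles for alpha- and triangles for beta-tubulin genes. Most spots lie below 0 on both axes, with TUBA1C and TUBB4B spots farthest to the left and TUBA1A, some TUBA1B spots, 1 TUBB and 1 TUBB4B spot near 0 in the controls.

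Tubulin spots shared their deviations between replicates, a measure that leaves out the difference between the groups. The deviations of a spot from its group means on the 6 arrays were correlated with the mean deviations of the other tubulin spots. The median correlation was 0.93 for tubulin spots and -0.056 for other spots, and it exceeded 0.8 at 28 of 38 tubulin spots, against 11.9% of other spots and 12.6% of other spots of above-median signal. TUBA1C spots ran from 0.97 to 0.99, TUBA4A stood at 0.98 and TUBB2A at 0.94. TUBA1B spots ran from 0.29 to 0.97. TUBA1A stood at 0.34, and the 2 spots below 0 were the dimmest TUBB4B spot at -0.17 and the steady TUBB spot at -0.44. TUBB3, at 0.82 and 0.83, followed the family less closely than TUBA1C. These correlations rest on 6 arrays and largely on the second replicates, and they are a description.

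**Figure D4:**
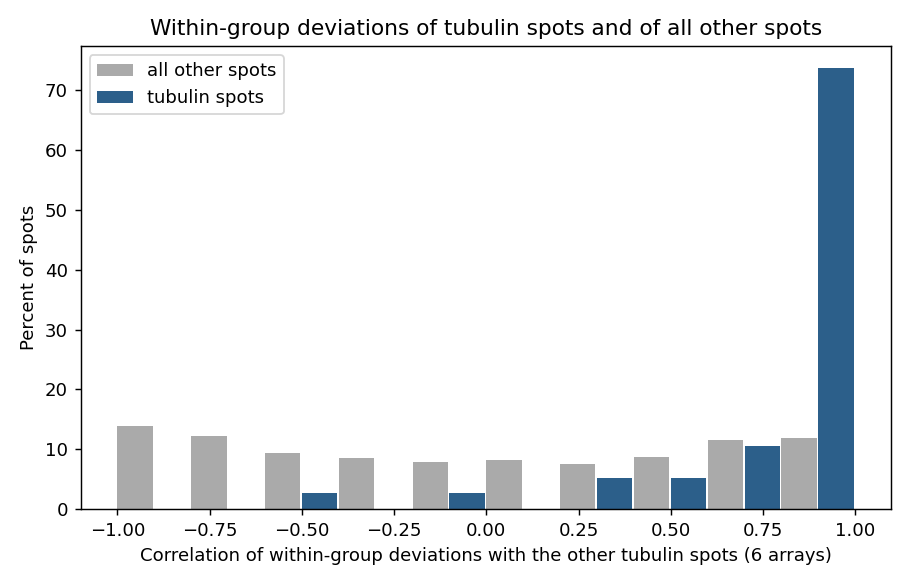
Percent of tubulin spots (blue) and of all other spots (grey) by the correlation of their within-group deviations with those of the other tubulin spots, in steps of 0.2 over 6 arrays. Of the tubulin spots 73.7% lie above 0.8, against 11.9% of the other spots.

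In signal, 35 of 38 tubulin spots lay above the median signal of all spots. The 3 below it were the TUBB2B spot and the dimmest spots of TUBB and TUBB4B, at mean signals of 6.72, 8.22 and 8.74. Without these 3 spots 34 of 35 had a lower mean and the median difference was -0.33. Spot names rest on the platform annotation, and whether each spot carries the gene it is named for was not tested. The 2 spots of 1 TUBB clone, at 10.91 and 8.22, show that spots of the same name can read at different levels.

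Other genes, of the microtubule system and of intermediate filaments and actins, were taken from 7 lists. Their median differences lay between -0.16, for the filament and actin list, and 0.081. Gene means over spots were lower for 51.9% of the 6245 other named genes, at a median of -0.0067. Of 8 measured genes among other tubulins and the gamma-tubulin complex, which nucleates microtubules, 5 were lower and 3 higher (median -0.0067). The alpha-tubulin TUBA3C was lowest: it read 11.24, 9.44 and 11.21 against 10.65, 9.52 and 10.39 (-0.45 ± 0.46), with the low second replicates of the family. TUBB4A, a neuronal beta-tubulin, followed at -0.19 ± 0.45, with GFP control 2 at -1.91 from the other controls. At the other end were TUBG2, a gamma-tubulin, at 0.33 ± 0.16 and TUBD1, a delta-tubulin of centrioles, at 0.14 ± 0.17. Of 14 tubulin folding genes (cofactors, prefoldin and the chaperonin), 6 were lower and 8 higher, at a median of 0.014. They ran from the cofactor genes TBCA (-0.32 ± 0.20) and TBCB (-0.23 ± 0.26) to TBCC (0.31 ± 0.24) and the prefoldin gene PFDN4 (0.48 ± 0.18). The groups did not overlap, with DN-TRF2 higher, at 4 of the 17 folding spots, where 4.28% of all spots did so. These were spots of PFDN4 and of TBCD, TBCE and ARL2, the last 3 named after their values were seen. TBCD had 3 spots, of which 2 had a lower mean, and their differences lay between -0.17 and 0.27. PFDN4 read 9.42, 9.87 and 9.82 against 9.95, 10.38 and 10.21.

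Enzymes of tubulin modification were lower for 2 and higher for 6 of 8 measured genes (median 0.081), from the acetyltransferase ATAT1 at -0.18 ± 0.15 to the deacetylase HDAC6 at a mean of 0.16 over 2 spots. Microtubule stabilizers and plus-end proteins were lower for 4 and higher for 5 of 9 (median 0.012). They ran from MAP1LC3B at -0.18 ± 0.25 to the axonal protein gene MAPT at 0.20 ± 0.16. Destabilizing and severing proteins were lower for 1 and higher for 5 of 6 (median 0.025). Among these STMN2, a growth-cone protein that binds tubulin dimers, was highest and read 9.23, 9.76 and 9.46 against 9.70, 9.82 and 9.92 (0.33 ± 0.17). STMN4 was lowest, at -0.23 ± 0.25. Kinesin and dynein motor genes were lower for 11 and higher for 7 of 18 (median -0.071), from KIF20A, a kinesin of cell division, at -0.29 ± 0.16 to the dynein adaptor BICD1 at 0.39 ± 0.23. Intermediate filament and actin genes were lower for 5 and higher for 2 of 7 (median -0.16). They ran from the neurofilament gene NEFM at -0.27 ± 0.19 to the actin gene ACTA2 at 0.17 ± 0.18. The groups did not overlap, with DN-TRF2 lower, at 3 of the 21 filament and actin spots, where 4.43% of all spots did so. All 3 were among the 9 spots of ACTG1, a cytoplasmic actin named after its values were seen. Among the 22 motor spots 1 was lower without overlap, of KIF20A, and 1 was higher, of DCTN3. Over all spots the shares were 4.43% and 4.28%. DCTN3, also named after its value was seen, had 2 spots of opposite sign, at -0.28 and 0.30. The other 4 lists had 0 spots without overlap in either direction. In each of these 7 lists 0 spots passed limma's adjusted p. At an unadjusted p under 0.05 there was 1 higher spot among folding genes and 1 lower spot among filament and actin genes, against 2.31% and 1.10% of all spots.

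**Figure D5:**
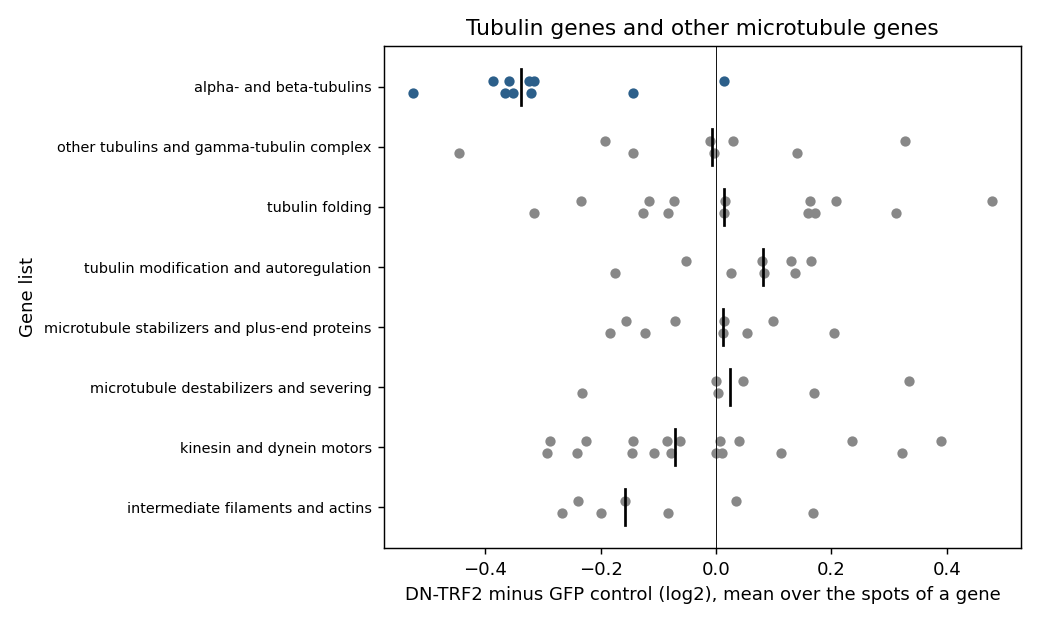
Difference between DN-TRF2 and GFP control (log2, mean over the spots of a gene) for the 10 tubulin genes (blue) and for the genes of 7 microtubule and filament lists (grey), with a bar at each median. The tubulin genes lie between -0.52 and 0.01, and the medians of the other lists between -0.16 and 0.081.

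The genes outside the 10 whose spot of above-median signal followed the mean of the 38 tubulin spots most closely over the 6 arrays, of 4122 such spots, were MAGEA3 (Pearson r = 0.997), a cancer-testis antigen, RPL27A (0.994), a ribosomal protein, TUBA3C (0.982), GAPDH (0.979) and TPI1 (0.979), both of glycolysis. GAPDH matched at all 4 of its spots, with r of at least 0.82, and GFP control 2 lay between -1.07 and -0.62 from the other controls at them. MAGEA3, RPL27A and TPI1 each had another spot with a negative r, down to -0.70, -0.62 and -0.41. Pearson r does not measure size. At the matched MAGEA3 spot GFP control 2 lay at -0.25 from the other controls, and the difference was -0.11 ± 0.15. The GAPDH spot read 11.93, 11.03 and 11.88 in the controls and 11.62, 10.90 and 11.48 with DN-TRF2, and 2 of the 4 GAPDH spots had a lower mean. The likeness was found by search over many spots and 6 arrays, and has no test.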

How the data were processed

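The authors deposited linear intensity values per spot for 6 one-channel arrays. The labels' protocols give the labelling. For image software, background treatment and scaling the entry is "not given in the sources used here". Each 25th position (384 blanks) and 47 further spots at the stand-in value of 10 on all arrays were dropped, leaving 9169 spots. Spots were named by gene ID through the platform annotation and RefSeq (GRCh38.p14), with a match for 8493 of 8517 annotated spots. An offset of 50 was added, log2 taken and arrays quantile-normalized. All spots were fitted with limma 3.58.1 (lmFit, eBayes) in R 4.3.3, using two-sided p-values and the Benjamini-Hochberg adjustment; the fit was tested on simulated data. Standard errors are moderated and come from the fit without the replicate block, so variation shared by like-numbered arrays is counted in them.

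The members, gene lists and rules were chosen with earlier results of these data known. For members, arrays are given for every spot of genes with up to 2 spots and otherwise for the brightest, lowest and highest; for other lists, genes were named from the 2 lowest and 2 highest. Over all spots, the within-group deviations of arrays 1, 2 and 3 correlated with those of the like-numbered array of the other group at 0.390, 0.296 and 0.246, each over 0.1, so replicate numbers were read as pairs; this comes from the values. The number of arrays limits the precision. Alternatives covered offset, scaling, dim spots, array weights, pairing, position, and each array or pair left out.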

Additional observations from a re-analysis of the deposited data

How the results depend on the processing

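The median difference over tubulin spots stayed below 0 under every alternative run, from -0.66 to -0.15 with 1 array left out and at -0.42 with median scaling and -0.37 without scaling. The count of spots with a lower mean ran from 28 to 37 with 1 array left out. The count of tubulin spots whose groups did not overlap, 5 with all arrays, was 11 with median scaling and 8 with a correction for position on the array, an alternative added after seeing the data together with the omission of the 3 dimmest spots; with 1 array left out it ran from 5 to 31. Leaving out both arrays of a replicate number, also added after seeing the data, gave medians from -0.48 to -0.24. Without numbers 1, 2 and 3, the counts without overlap were 12, 31 and 7. The counts with a lower mean were 32, 37 and 32 in that order. Shares of all spots were not counted for these settings, for median scaling or for position correction. Nor was the share with a lower mean counted when 1 array was left out. Groups also separate more easily with fewer arrays, so these counts cannot be set against the share with all arrays. With the replicate block the median difference was again -0.32, since the pairing leaves the mean differences as they are, and 0 spots were called. The number of spots called over the whole array was 0 under each alternative except an offset of 1, where 1 spot, annotated to BOP1 and named after its value was seen, was called (limma adjusted p = 0.0340); with 1 array or both arrays of a number left out it was 0 each time. Of 208 gene values under the alternatives, 10 had the opposite sign, 7 for TUBB2B and 3 for TUBB4B. All 208 moved by less than the pooled SD between replicates. Leaving out 1 of 3 arrays can hardly move a group mean by more than that SD, so this count does not show stability. The causes were not tested. Signal over background could not be measured because the blanks hold a stand-in, and Dixon's outlier test was not applied to groups of 3.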
